A study of Mus musculus with 12 samples.

Results

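The genes of glycolysis and of the HIF-1 response were read in 2 sorted populations of the mouse cecum, resident macrophages (RM) and dendritic cells that carry CD11b (CD11b+ DC), with and without the transcription factor Runx3. The set was a fixed list of 36 genes, and a gene was represented by the row of the value table that carried its symbol alone, or by the brightest such row where there were several. Of the 36 genes, 33 had such a row, among 21789 rows with 1 gene symbol and 35556 rows in all. *Gpi1* and *Eno1* had no row of a single symbol, and *Gapdh* was named only on 25 rows shared with other symbols, so these 3 genes are not described further. *Ero1l* was matched through its gene ID to rows named *Ero1a*.

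Glycolysis breaks glucose down to pyruvate in the cytosol, and macrophages and dendritic cells that meet inflammatory signals are known to draw on it. HIF-1 is a transcription factor whose alpha subunit, encoded by *Hif1a*, is marked for destruction in the presence of oxygen by prolyl hydroxylases of the *Egln* family. When the protein escapes this mark it switches on genes for glucose uptake, most glycolytic steps, lactate export and adaptation to low oxygen, and its own hydroxylase *Egln3* is among them. The lamina propria of the large intestine borders a lumen poor in oxygen.

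The study compared WT mice with mice lacking Runx3 in mononuclear phagocytes (Runx3Δ), which carried floxed *Runx3* alleles and the *CD11c-Cre* transgene, in order to follow the transcriptional program that depends on Runx3. All mice were on the C57Bl/6 background and aged 6 to 8 weeks, males and females were pooled, and the WT mice were litter mates. Each of the 12 arrays held RNA of cells pooled from 3 to 4 mice. RM were sorted as cells with, and CD11b+ DC as cells without, the macrophage surface protein encoded by *Adgre1*, in both cases from Ly6c- cells positive for CD45, CD11c, MHCII and CD11b. There were 3 arrays of WT RM, 4 of Runx3Δ RM, 2 of WT CD11b+ DC and 3 of Runx3Δ CD11b+ DC. CD11c-Cre is active in CD11c+ cells in general, the sort itself required CD11c, and the labels give the 2 genotypes as Runx3 +/+ and Runx3 -/-. Whether the WT mice carried floxed alleles or the transgene is not given in the sources used here. The labels also number 4 litters. RM replicates 1 to 4 carry the litter numbers 1 to 4, the WT CD11b+ DC come from litters 2 and 3, the Runx3Δ CD11b+ DC come from litters 1, 3 and 4, and litter 4 has no WT array.

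Levels are log2 intensities, on which a difference of 1 stands for a 2-fold change, and they were not compared between genes because probes differ in brightness. The single *Runx3* row sums up probes along the gene and is no measure of the deletion. It read 9.48 to 9.83 in WT RM, 9.85 to 10.18 in Runx3Δ RM, 9.99 to 10.11 in WT CD11b+ DC and 9.97 to 10.14 in Runx3Δ CD11b+ DC. Of 14 macrophage markers, 11 were higher in WT RM than in WT CD11b+ DC at an adjusted p under 0.05 (limma, over all 35556 rows). This stands beside 4.14% of rows with 1 gene symbol. Among the 11 is *Adgre1*, whose protein the sort itself used to part the cells. Of 11 markers of CD11b+ DC, 8 were lower by the same rule, beside 4.21% of rows, among them *Flt3*, *Zbtb46* and *Itgae*. *Sirpa* of the second list was higher in RM by this rule. *Itgam* and *Itgax* stand on both lists and did not pass, at 0.57 ± 0.15 and -0.06 ± 0.23. In sorted bulk samples such as these, fewer cells of a type and less RNA per cell cannot be told apart.

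The HIF-1 complex recognises the core letters ACGTG or GCGTG in its target genes, and Runx proteins recognise TGTGGT, so the promoters of the genes were searched for these letters on both strands. The windows run from 250 bases before to 50 bases after the start of the gene (RefSeq, GRCm38.p6). Of the 33 genes, 31 had an entry, with 43 promoters, and *Slc2a3* and *Ndrg1* had none. ACGTG stood in 27 of the 43 promoters (62.8%), against 19.6% of all 32851 promoters in the table and 20.9% of those of protein-coding genes. GCGTG stood in 51.2% of the promoters, against 32.4% of all and 38.5% of those of protein-coding genes. One or the other stood in 79.1%, against 43.8% of all promoters and 49.3% of those of protein-coding genes. TGTGGT stood in 20.9%, against 16.8% and 15.0%. The list was made of glycolysis genes and HIF-1 targets, so a high share of ACGTG or GCGTG may follow from that choice. It is no result on these samples. The palindrome CACGTG reads as ACGTG on both strands and was counted there as 2 overlapping matches.

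The windows below are shown because their genes carry the differences described further on, or, for *Pgk1* and *Ldha*, because they are glycolytic genes in which several copies of ACGTG lie close together. Each holds 30 bases upstream of the start, read 5′ to 3′ on the strand of the gene, and the capitals mark ACGTG or its complement CACGT in the first 6, GCGTG in *Pfkp* and *Pfkfb4*, and both CACGT and ACCACA, the complement of TGTGGT, in *Hk3*.
Hif1a (chr12:73907720-73907749, + strand): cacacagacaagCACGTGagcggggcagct
Slc2a1 (chr4:119108696-119108725, + strand): agtcccgccccggACGTGctccccaggccc
Slc16a3 (chr11:120949034-120949063, + strand): gcggtgACGTGcgcgggggACGTGccgcgc
Egln3 (chr12:54204087-54204116, - strand): atgtgcatctcagACGTGagatccaggttt
Pgk1 (chrX:106186947-106186976, + strand): aggACGTGacaaatggaagtagCACGTctc
Ldha (chr7:46845750-46845779, + strand): agcctaCACGTGggttcccgCACGTccgct
Pfkp (chr13:6648891-6648920, - strand): tccctaacagaacGCGTGtccatactatcc
Pfkfb4 (chr9:108991772-108991801, + strand): tttgacggatgggGCGTGcttagtccaaaa
Hk3 (chr13:55021516-55021545, - strand): ttgaCACGTtgcctagttcaACCACAaatt

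A match is a description of these letters in this window and was not tested as a binding site. The letters did not set apart the genes that differed with genotype: ACGTG stood in 5 of the 7 genes that were higher in Runx3Δ RM at the thresholds given below (71.4%) and in 19 of the 24 others with an entry (79.2%). *Tpi1*, one of the 7, held neither ACGTG nor GCGTG in its window.

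The first comparison asked whether these genes differ between Runx3Δ and WT RM. *Hif1a*, the glucose transporter gene *Slc2a1*, the lactate exporter gene *Slc16a3*, the glycolytic genes *Pfkp* and *Tpi1*, *Egln3* and *Mif* were each at least 1.5-fold higher in Runx3Δ RM at an unadjusted p of at most 0.05, which are the thresholds of the study's methods, and no gene was lower at these thresholds. These 7 of 33 genes stand beside 0.523% of all rows with 1 gene symbol that were higher at the same thresholds and 0.817% that were lower. None of the 33 passed the limma test with p-values adjusted over all 35556 rows at 0.05. That test called 0.0184% of the rows with 1 gene symbol. With p-values adjusted in the same way, none passed in the ordinary one-way model either, an adjustment that the methods do not name. At an unadjusted p under 0.05, 13 genes were higher and 3 lower, where 3.48% of rows were higher and 5.55% lower. The difference lay above 0 for 25 genes and below 0 for 8, with a median of 0.29 against 0.01 over all rows with 1 gene symbol. The median was 0.18 without WT RM replicate 2 and at most 0.42 without any other single array. The arrays of the 2 genotypes did not overlap for 7 genes that were higher and 2 that were lower, beside 4.11% and 4.43% of rows.

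*Hif1a* had the smallest p-value of the 33. The study itself listed *Hif1a* in RM, and *Mif* in both cell types, among genes it chose on these samples, so the p-values of both are not independent of that choice. Its level was 10.68, 10.47 and 10.43 in WT RM and 11.02, 11.28, 11.07 and 11.22 in Runx3Δ RM. Every Runx3Δ array lay above every WT array, and the spread within each genotype was small (SD 0.14, n = 3 and SD 0.12, n = 4). The difference was 0.62 ± 0.11 (SE; 95% interval 0.37 to 0.87), or 1.53-fold, with an unadjusted p of 0.000204 and an adjusted p of 0.148. Over 25 other settings its adjusted p ranged from 0.0419 to 0.425, and it passed in the 2 settings in which each gene entered once. In the litters that held both genotypes, Runx3Δ RM exceeded WT RM by 0.34, 0.81 and 0.64 in litters 1, 2 and 3.

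Of the hydroxylase genes, *Egln3* had levels of 6.13, 5.10 and 5.02 in WT RM and 5.83, 6.50, 6.08 and 6.11 in Runx3Δ RM. The groups overlapped, because the WT array of litter 1 lay as high as the Runx3Δ arrays. The difference was 0.71 ± 0.25 with an adjusted p of 0.517. *Egln1*, the more widely used hydroxylase of the family, differed by 0.02 ± 0.16.

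**Figure D1:**
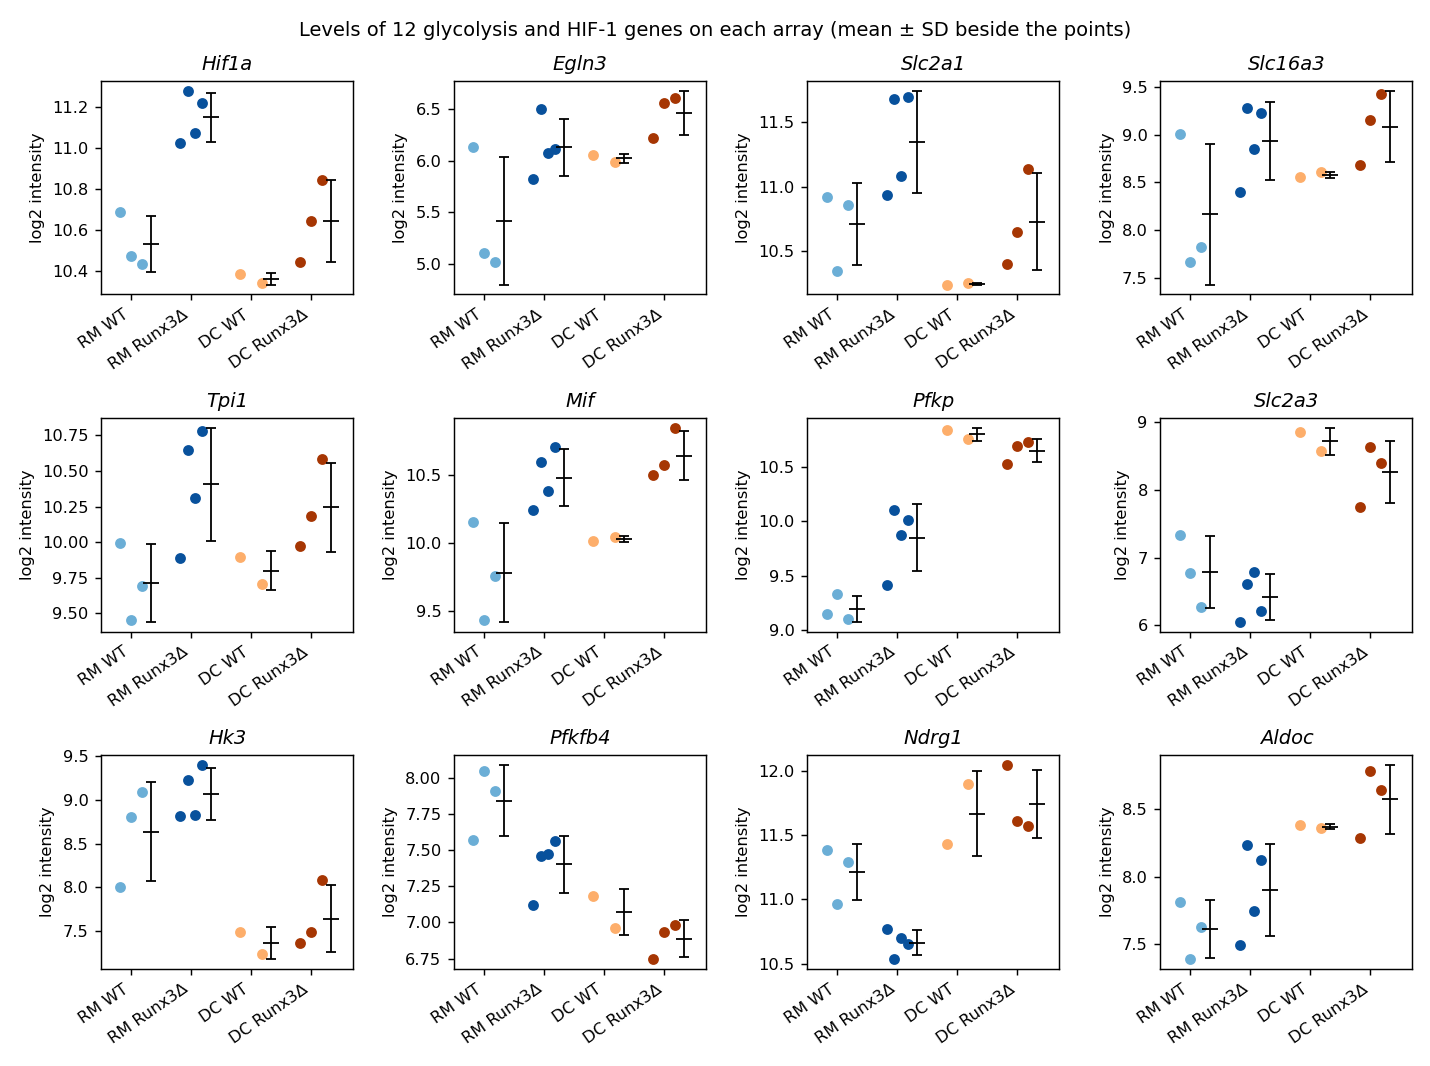
Log2 intensity (y axis, own range per panel) of 12 genes on each of the 12 arrays, by cell type and genotype; points are arrays, and the black bar beside them is the mean ± SD. In Hif1a the 4 Runx3Δ RM arrays sit between 11.02 and 11.28, above the 3 WT RM arrays at 10.43 to 10.68, while Pfkp, Slc2a3, Hk3 and Pfkfb4 separate RM from CD11b+ DC in both genotypes.

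The transporter genes *Slc2a1* and *Slc16a3* were higher in Runx3Δ RM at the thresholds. *Slc2a1*, which encodes the glucose carrier GLUT1, read 10.92, 10.34 and 10.86 in WT RM and 10.93, 11.68, 11.08 and 11.70 in Runx3Δ RM, so that the lowest Runx3Δ array and the highest WT array, both of litter 1, nearly touched. Its difference was 0.64 ± 0.24 (adjusted p = 0.537). *Slc16a3*, which encodes the lactate carrier MCT4, read 9.01, 7.66 and 7.82 in WT RM and 8.39, 9.28, 8.85 and 9.23 in Runx3Δ RM. The WT array of litter 1 again lay among the Runx3Δ arrays, and the difference of 0.77 ± 0.32 had an adjusted p of 0.582. *Slc2a3*, which encodes the second glucose carrier GLUT3, went the other way in value, with a difference of -0.38 ± 0.28 and overlapping groups.

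In the steps from glucose to triose phosphate, the 11 measured genes were divided, with 6 differences above 0 and 5 below 0. *Pfkp*, the platelet-type phosphofructokinase, read 9.15, 9.33 and 9.10 in WT RM and 9.41, 10.10, 9.87 and 10.01 in Runx3Δ RM. The genotypes did not overlap, and the difference was 0.65 ± 0.15 (adjusted p = 0.235). *Tpi1*, the triose phosphate isomerase, read 9.996, 9.45 and 9.69 in WT RM and 9.89, 10.65, 10.31 and 10.78 in Runx3Δ RM, with a difference of 0.69 ± 0.22 (adjusted p = 0.466). Only the Runx3Δ array of litter 1 lay within the WT range. The liver-type phosphofructokinase gene *Pfkl* (0.52 ± 0.21) and the aldolase gene *Aldoa* (0.52 ± 0.16) were also higher at an unadjusted p under 0.05, at less than 1.5-fold. *Hk3* (0.43 ± 0.26) and *Aldoc* (0.29 ± 0.19) were not. The hexokinase genes *Hk1* (-0.03 ± 0.11) and *Hk2* (-0.05 ± 0.14) and the muscle-type phosphofructokinase gene *Pfkm* (-0.04 ± 0.11) had differences within their standard errors. A second row of *Hk1*, described further on, differed by 0.12, so the sign counted for this gene depends on the row.

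The genes of the bifunctional enzymes that set the level of fructose 2,6-bisphosphate, an activator of phosphofructokinase, were lower in value in Runx3Δ RM. *Pfkfb4* read 7.57, 8.05 and 7.91 in WT RM and 7.12, 7.46, 7.47 and 7.57 in Runx3Δ RM, with a difference of -0.44 ± 0.14 (unadjusted p = 0.00998, adjusted p = 0.471). The highest Runx3Δ array lay just under the lowest WT array. *Pfkfb3* differed by -0.38 ± 0.16 (unadjusted p = 0.0378). In both genes the Runx3Δ array was lower than the WT array in each of the 3 litters.

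Below triose phosphate, all 5 measured genes had differences above 0, from 0.02 for *Ldha*, lactate dehydrogenase A, to 0.58 for *Pgk1*, phosphoglycerate kinase. *Pgk1* was the only one at an unadjusted p under 0.05 (0.58 ± 0.18, adjusted p = 0.426). *Pgam1* (0.22 ± 0.25), *Eno2* (0.19 ± 0.30) and the pyruvate kinase gene *Pkm* (0.20 ± 0.14) were not, and *Ldha* differed by 0.02 ± 0.11. The genes at the mitochondrial gate were all higher in value. *Pdk1*, the kinase that shuts pyruvate dehydrogenase off, read 5.76, 6.09 and 6.30 in WT RM and 6.49, 6.68, 6.69 and 6.63 in Runx3Δ RM. The genotypes did not overlap, and the difference was 0.58 ± 0.14 with an unadjusted p of 0.00186 and an adjusted p of 0.278. *Pdk3* (0.28 ± 0.17) and the mitophagy gene *Bnip3* (0.48 ± 0.24) had wider errors.

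Among the other HIF-1 targets, *Mif*, which encodes the macrophage migration inhibitory factor, read 10.16, 9.43 and 9.76 in WT RM and 10.24, 10.60, 10.39 and 10.70 in Runx3Δ RM. The genotypes did not overlap, although the arrays of litter 1 differed by only 0.08, and the difference was 0.70 ± 0.17 (adjusted p = 0.274). *Vegfa*, the vascular growth factor, was higher by 0.42 ± 0.16 and *Ankrd37* by 0.29 ± 0.11, both at an unadjusted p under 0.05. *Ero1l*, an oxidase of the endoplasmic reticulum, differed by 0.53 ± 0.26, and the collagen prolyl hydroxylase genes *P4ha1* and *P4ha2* by 0.05 ± 0.19 and 0.02 ± 0.11. *Car12*, a carbonic anhydrase gene, lay between 4.00 and 4.42 on all arrays and differed by -0.02 ± 0.11.

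*Ndrg1*, which hypoxia is known to induce, was lower in value in Runx3Δ RM. It read 11.38, 10.97 and 11.29 in WT RM and 10.77, 10.54, 10.70 and 10.66 in Runx3Δ RM, without overlap. The difference was -0.55 ± 0.15 with an unadjusted p of 0.00459 and an adjusted p of 0.377, and the Runx3Δ minus WT differences in litters 1, 2 and 3 were -0.61, -0.43 and -0.59.

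**Figure D2:**
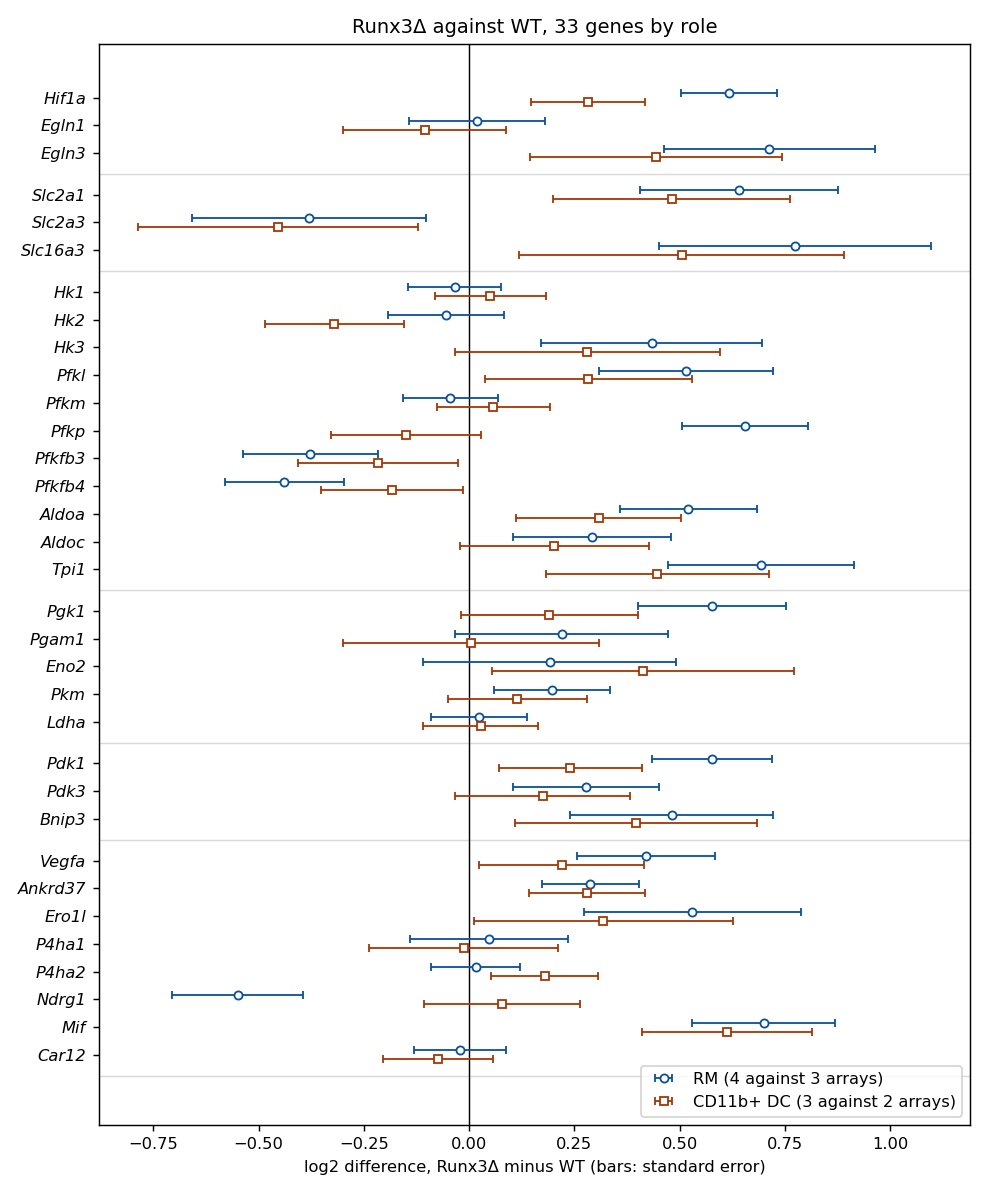
Log2 difference Runx3Δ minus WT (x axis) with its standard error for the 33 genes (y axis, grouped by role: HIF-1 and its hydroxylases, transporters, upper glycolysis, lower glycolysis, mitochondrial entry, other targets), in RM (circles) and CD11b+ DC (squares). All symbols are open because none passed the adjusted test; 25 genes lie above 0 in each cell type.

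The litters did not carry this difference equally. In litter 1 the Runx3Δ minus WT difference in RM lay above 0 for 11 genes and below 0 for 21, with a median of -0.06. In litter 2 it lay above 0 for 24 genes, with a median of 0.59, and in litter 3 for 25 genes, with a median of 0.22. Measured from the WT mean of RM, the median over the 33 genes was 0.16, -0.17 and -0.02 on the WT arrays and 0.16, 0.55, 0.18 and 0.52 on the Runx3Δ arrays, so that the WT and the Runx3Δ array of litter 1 stood at the same height. All rows with 1 gene symbol had medians between -0.02 and 0.02 on the same arrays. In all 3 litters, *Ankrd37*, *Bnip3*, *Eno2*, *Hif1a*, *Mif*, *Pdk1*, *Pfkp* and *Slc2a1* were higher in the Runx3Δ array, and *Ndrg1*, *Pfkfb3*, *Pfkfb4* and *Pfkm* were lower. Over all RM arrays *Eno2* (0.19 ± 0.30) and *Pfkm* (-0.04 ± 0.11) differed by less than their standard errors. The share of all rows that kept their sign in the 3 litters was not computed, so these genes have no background to stand beside.

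The count of 7 genes at the thresholds depended on these arrays. With litter as a block it was 3, namely *Pfkp*, *Egln3* and *Mif*, and without litter 4 it was 4, namely *Hif1a*, *Pfkp*, *Egln3* and *Mif*. It was 12 without WT RM replicate 1 and 11 without Runx3Δ RM replicate 1, the arrays of litter 1. It was 4 without WT RM replicate 2, 3 without Runx3Δ RM replicate 2 and 4 without Runx3Δ RM replicate 4.

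**Figure D3:**
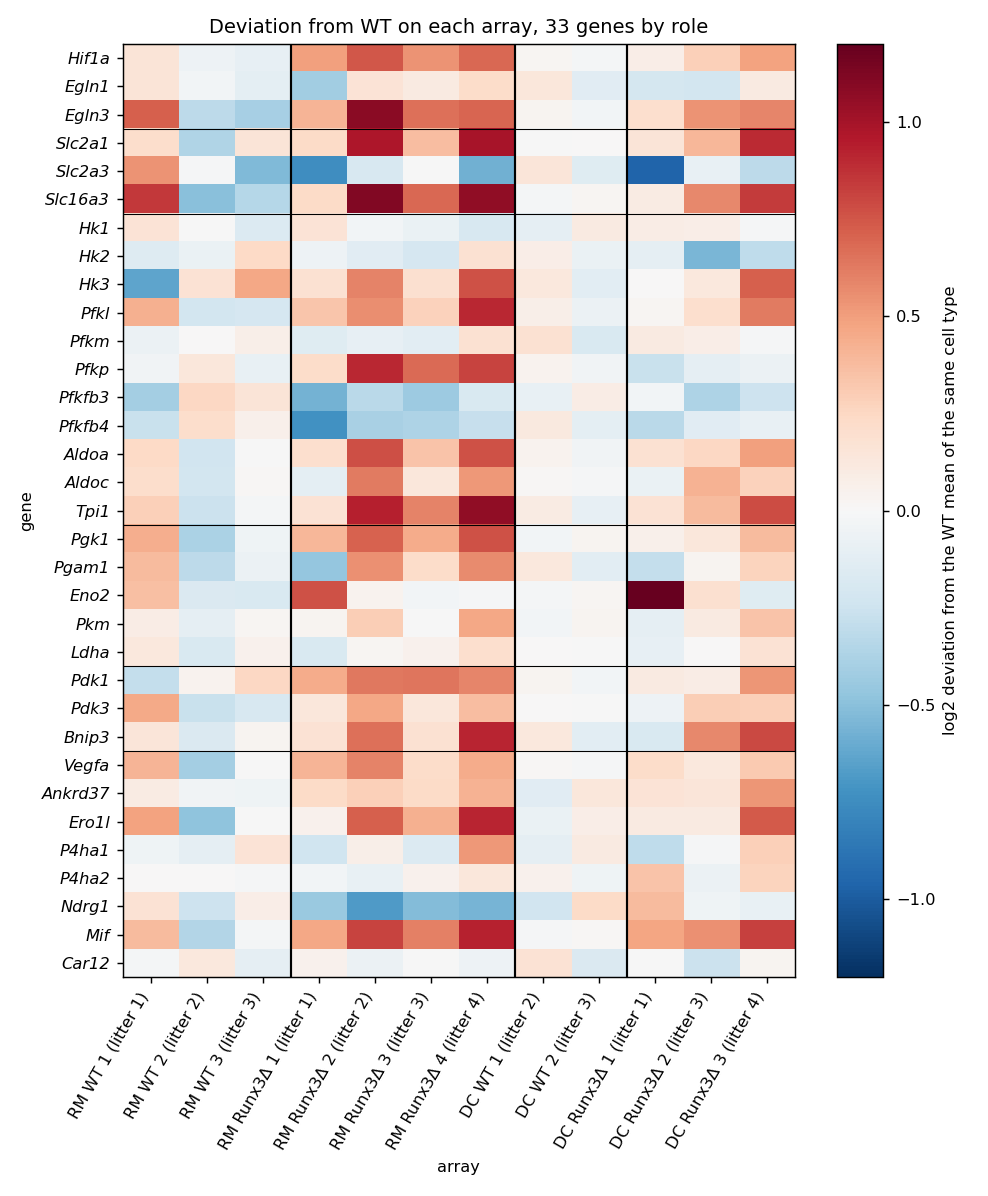
Log2 deviation of each of 33 genes (rows, grouped by role) from the WT mean of the same cell type on each of 12 arrays (columns, with litter numbers); red is higher and blue lower, and black lines part the groups and roles; the colours end at 1.2 in either direction, which no value exceeds. The Runx3Δ RM arrays of litters 2 and 4 are the reddest, with medians of 0.55 and 0.52, and the WT RM array of litter 1 has a median of 0.16, that of the Runx3Δ array of the same litter.

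The second comparison set Runx3Δ against WT CD11b+ DC. *Mif*, which the study had listed from these samples, was the one gene that was higher at the thresholds, beside 0.569% of rows with 1 gene symbol, and none was lower, beside 1.19%. No gene passed the adjusted test, which called 0 rows of the table, and *Mif* was also the only one of the 33 at an unadjusted p under 0.05, beside 3% of rows that were higher. With adjusted p-values the ordinary one-way model called none of the 33 either. The difference lay above 0 for 25 of 33 genes, with a median of 0.19 against 0.01 over all rows with 1 gene symbol. The median was 0.07 with litter as a block and 0.11 without Runx3Δ replicate 3, the array of litter 4. With 2 WT arrays the genotypes often failed to overlap: 12 genes were higher and 2 lower on every Runx3Δ array, where 13.7% and 13.8% of rows were.

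*Mif* read 10.01 and 10.05 in WT CD11b+ DC and 10.50, 10.58 and 10.85 in Runx3Δ CD11b+ DC. All Runx3Δ arrays lay above the WT arrays, and the difference was 0.61 ± 0.20 (unadjusted p = 0.0115, adjusted p = 0.557). It no longer met the thresholds with litter as a block, without litter 4 or without either WT replicate 1 or Runx3Δ replicate 3 of CD11b+ DC, and without Runx3Δ replicate 1 the count at the thresholds was 2. *Hif1a* read 10.38 and 10.34 in WT and 10.44, 10.64 and 10.84 in Runx3Δ CD11b+ DC. The lowest Runx3Δ array lay close to the WT arrays, and the difference of 0.28 ± 0.14 (95% interval -0.02 to 0.58) had an adjusted p of 0.760.

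*Ankrd37*, an ankyrin repeat gene induced by HIF-1, read 5.86 and 6.13 in WT and 6.16, 6.14 and 6.53 in Runx3Δ CD11b+ DC, a difference of 0.28 ± 0.14. *Hk2*, the inducible hexokinase, read 10.51 and 10.35 in WT and 10.32, 9.89 and 10.13 in Runx3Δ CD11b+ DC. It was one of the 2 genes lower on every Runx3Δ array, with a difference of -0.32 ± 0.16 and an adjusted p of 0.775. The other was *Pfkp*, at -0.15 ± 0.18. *Slc2a1* (0.48 ± 0.28), *Slc16a3* (0.50 ± 0.39), *Tpi1* (0.45 ± 0.26) and *Egln3* (0.44 ± 0.30) lay above every WT array on all 3 Runx3Δ arrays and had wide errors. In litter 3, the one litter with both genotypes of CD11b+ DC, 23 genes were higher and 10 lower in the Runx3Δ array, with a median of 0.12. From the WT mean, the median over the 33 genes was 0.06, 0.11 and 0.29 on the Runx3Δ arrays of litters 1, 3 and 4, and litter 4 has no WT array to set beside it.

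The third comparison asked whether the difference between genotypes was itself different in RM and CD11b+ DC. No gene passed the adjusted test of this interaction, which called 0 rows, and *Pfkp* and *Ndrg1* met the thresholds, 1 in each direction, beside 0.643% and 0.633% of rows. They were also the only genes at an unadjusted p under 0.05, and the ordinary one-way model called none after adjustment. The count of 2 was 1 with litter as a block and without WT RM replicate 3, Runx3Δ RM replicate 2, WT CD11b+ DC replicate 1 or Runx3Δ CD11b+ DC replicate 1. *Pfkp* read 10.84 and 10.76 in WT and 10.53, 10.69 and 10.73 in Runx3Δ CD11b+ DC. The Runx3Δ arrays thus lay under the WT arrays in CD11b+ DC and above them in RM, and the interaction was 0.80 ± 0.23 (unadjusted p = 0.0053, adjusted p = 1.00). *Ndrg1* read 11.43 and 11.90 in WT and 12.04, 11.61 and 11.57 in Runx3Δ CD11b+ DC, with overlap, and its interaction was -0.63 ± 0.24 (unadjusted p = 0.0248, adjusted p = 1.00). That of *Hif1a* was 0.34 ± 0.18 (95% interval -0.05 to 0.72) and that of *Pdk1* 0.34 ± 0.22, so neither gene was shown to respond differently in the 2 cell types. *Pdk1* read 6.37 and 6.30 in WT and 6.45, 6.42 and 6.86 in Runx3Δ CD11b+ DC.

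The fourth comparison set RM against CD11b+ DC, first in WT mice. *Hk3* and *Pfkfb4* were higher in RM, and *Slc2a3* and *Pfkp* were lower, at an adjusted p under 0.05. These 4 of 33 genes stand beside 4.14% of rows with 1 gene symbol that were higher and 4.21% that were lower. In Runx3Δ mice 6 genes passed: *Hif1a*, *Hk3* and *Pfkfb4* were higher in RM and *Slc2a3*, *Pfkp* and *Ndrg1* lower, beside 4.81% and 5.71% of rows. The medians over the 33 genes were -0.08 in WT and 0.05 in Runx3Δ mice.

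*Slc2a3* had the largest difference of the 33. It read 7.33, 6.78 and 6.27 in WT RM, 6.05, 6.61, 6.78 and 6.21 in Runx3Δ RM, 8.86 and 8.57 in WT CD11b+ DC and 7.75, 8.63 and 8.40 in Runx3Δ CD11b+ DC. No RM array reached any CD11b+ DC array. The difference was -1.92 ± 0.33 in WT mice, a level 3.78-fold lower in RM (adjusted p = 0.00539), and -1.85 ± 0.28 in Runx3Δ mice, 3.59-fold lower (adjusted p = 0.0018). The WT call was lost without WT CD11b+ DC replicate 1 (adjusted p = 0.0635).

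*Pfkp* differed by -1.60 ± 0.18 between WT RM and WT CD11b+ DC, a 3.04-fold difference (adjusted p = 0.000343), and by -0.80 ± 0.15, or 1.74-fold, in Runx3Δ mice (adjusted p = 0.00678). The gap between the cell types was smaller in Runx3Δ than in WT mice by 0.80 ± 0.23, which is the interaction given above and did not pass the adjusted test. Both calls held in all 24 other settings. The within-litter differences were -1.51 and -1.65 in WT mice of litters 2 and 3 and -1.12, -0.82 and -0.72 in Runx3Δ mice of litters 1, 3 and 4.

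*Hk3*, the hexokinase of myeloid cells, was the gene with the largest difference in the other direction. It read 8.00, 8.80 and 9.09 in WT RM and 8.82, 9.23, 8.83 and 9.40 in Runx3Δ RM, and 7.49 and 7.24 in WT and 7.37, 7.49 and 8.08 in Runx3Δ CD11b+ DC. RM exceeded CD11b+ DC of the same genotype on every array, by 1.27 ± 0.31 or 2.41-fold in WT mice (adjusted p = 0.037) and by 1.42 ± 0.26 or 2.68-fold in Runx3Δ mice (adjusted p = 0.00652). The WT call was lost in 8 of 24 other settings, with an adjusted p of up to 0.235, namely with the ordinary one-way model and without each of WT RM replicates 2 and 3, Runx3Δ RM replicates 2 and 3, both WT CD11b+ DC replicates and Runx3Δ CD11b+ DC replicate 2.

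*Pfkfb4* read 7.18 and 6.96 in WT and 6.75, 6.93 and 6.99 in Runx3Δ CD11b+ DC, below the RM of the same genotype throughout. The difference was 0.77 ± 0.17, or 1.71-fold, in WT mice (adjusted p = 0.0201) and 0.52 ± 0.14, or 1.43-fold, in Runx3Δ mice (adjusted p = 0.049). The WT call was lost without WT RM replicate 2 or 3 and without either WT CD11b+ DC replicate, and the Runx3Δ call held in 11 of 24 other settings. It was lost without WT RM replicate 3, without Runx3Δ RM replicate 2, 3 or 4, without any 1 array of CD11b+ DC, without litter 4, with median centring, with an intensity trend and with the ordinary one-way model. *Aldoc*, the aldolase isoform best known from brain, fell just outside the threshold in both genotypes, with -0.77 ± 0.22 in WT (adjusted p = 0.0772) and -0.68 ± 0.19 in Runx3Δ mice (adjusted p = 0.0515).

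*Hif1a* and *Ndrg1* separated the cell types past the threshold in Runx3Δ and not in WT mice. *Hif1a* was higher in RM by 0.50 ± 0.11, or 1.42-fold, in Runx3Δ mice (adjusted p = 0.0189) and by 0.17 ± 0.14 in WT mice (adjusted p = 0.639). *Ndrg1*, lower in RM, differed by -1.08 ± 0.15, or 2.11-fold, in Runx3Δ mice (adjusted p = 0.00137) and by -0.45 ± 0.19 in WT mice (adjusted p = 0.232). For neither gene did the difference between these differences pass the adjusted test, as given above. The *Ndrg1* call in Runx3Δ mice held in all 24 other settings, and that of *Hif1a* was lost without Runx3Δ RM replicate 2 or 4 and without Runx3Δ CD11b+ DC replicate 1 or 2.

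**Figure D4:**
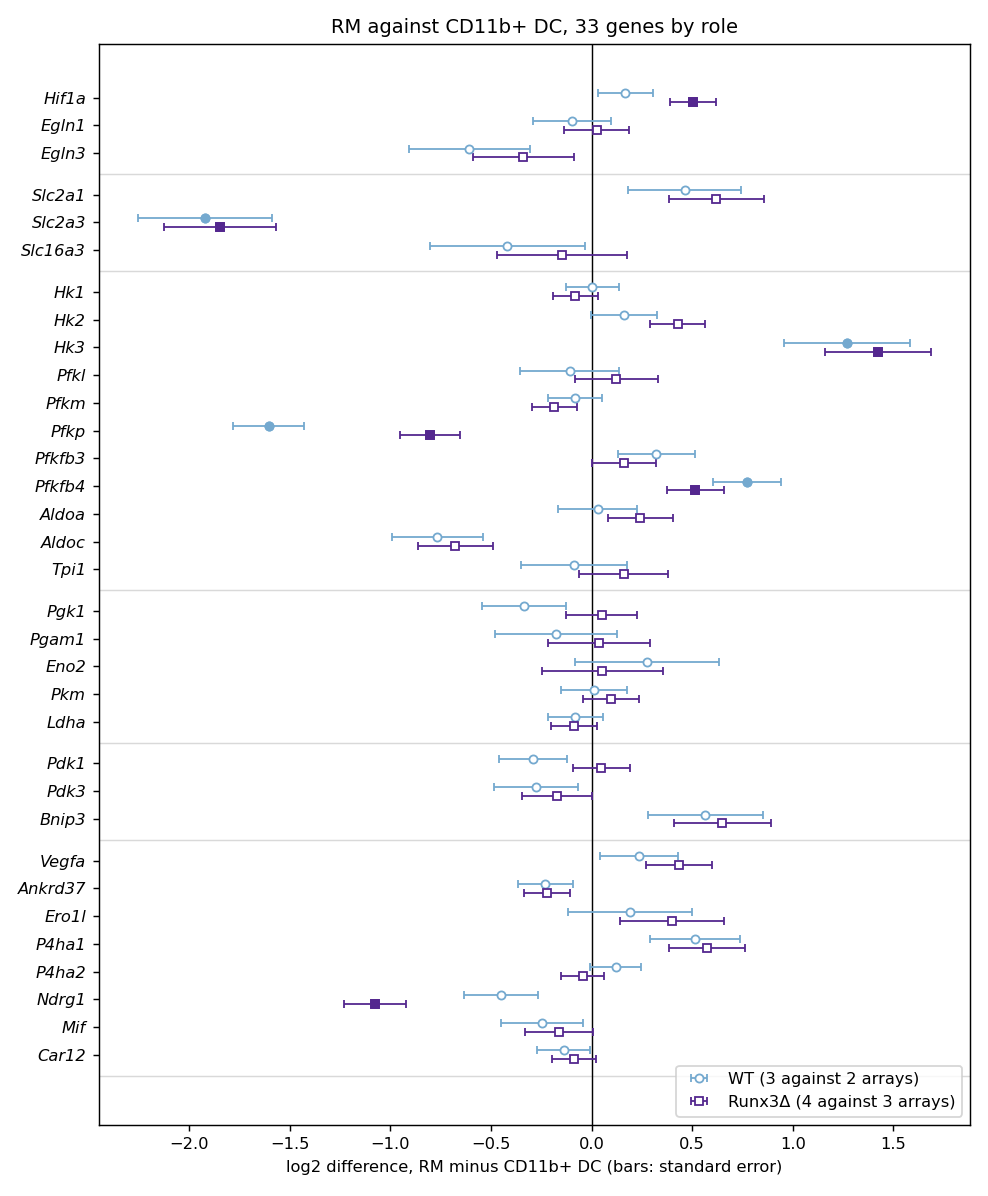
Log2 difference RM minus CD11b+ DC (x axis) with its standard error for the 33 genes (y axis, grouped by role), in WT (circles) and Runx3Δ (squares) mice; filled symbols have an adjusted p under 0.05. Slc2a3 at -1.92 and -1.85 and Hk3 at 1.27 and 1.42 lie farthest out, and Pfkp moves from -1.60 in WT to -0.80 in Runx3Δ mice.

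Several genes had more than 1 row, and the rows mostly told the same. The 3 rows of *Mif* differed between Runx3Δ and WT RM by 0.69 to 0.71 and the 3 rows of *Pgk1*, of which 2 hold the same values, by 0.58. The 3 rows of *Pgam1* differed by 0.22 to 0.24 and the 2 rows of *Pkm* by 0.20 and 0.32. The dimmer row of *Bnip3* differed by 0.48 in RM and 0.57 in CD11b+ DC, both at an unadjusted p under 0.01, while the brighter row differed by 0.48 and 0.40. The brighter row of *Hk1* has a mean level of 12.13 and no RefSeq transcript, and its level lies within that of 16 rows that name *Hk1* beside other genes, from 11.40 to 12.79. The row with RefSeq transcripts has a mean level of 8.50, and its differences were 0.12 between genotypes in RM and -0.33 between WT RM and WT CD11b+ DC, so which row measures hexokinase 1 is uncertain.

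A list of 70 other genes of glycolysis, its side branches and HIF-1 signaling, of which 64 had a row, was read beside the 33. None passed the adjusted test between genotypes in either cell type. The medians were 0.01 in RM and 0.04 in CD11b+ DC, with 35 and 39 of 64 genes above 0. *Nos2*, the inducible nitric oxide synthase, had the largest difference in RM and is on the list that the study drew from these samples. It read 5.64, 5.32 and 5.67 in WT RM and 7.23, 9.12, 7.90 and 8.71 in Runx3Δ RM, without overlap, a difference of 2.70 ± 0.47 (unadjusted p = 0.000123, adjusted p = 0.125). In CD11b+ DC it read 4.94 and 5.42 in WT and 6.05, 6.79 and 7.88 in Runx3Δ arrays, a difference of 1.72 ± 0.56 (adjusted p = 0.548). *Cited2*, whose protein competes with HIF-1 for a coactivator and which the study also listed, differed by -0.65 ± 0.17 in RM (adjusted p = 0.343), and *Pdhb*, a subunit of pyruvate dehydrogenase, by -0.31 ± 0.08 (adjusted p = 0.278). In CD11b+ DC the smallest p-value was that of *Mtor*, at -0.47 ± 0.12 (adjusted p = 0.414), and the enolase gene *Eno3* differed by 0.69 ± 0.22 (adjusted p = 0.55).

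Between RM and CD11b+ DC, 7 of the 64 genes were higher and 5 lower in WT RM at an adjusted p under 0.05, beside 4.14% and 4.21% of rows with 1 gene symbol. In Runx3Δ RM 7 were higher and 8 lower, beside 4.81% and 5.71%. By sign alone 40 genes lay above 0 and 24 below in WT mice, and 38 and 26 in Runx3Δ mice. The lactate and pyruvate carrier gene *Slc16a7* was higher in RM by 1.45 ± 0.20 in WT mice (adjusted p = 0.0014) and by 1.18 ± 0.17 in Runx3Δ mice (adjusted p = 0.00122). The glucose transporter gene *Slc2a6* differed by -1.41 ± 0.12 (adjusted p = 8.2e-05) and -0.89 ± 0.10 (adjusted p = 0.000324). The glycogen phosphorylase gene *Pygl* differed by -1.09 ± 0.21 and -1.08 ± 0.18, the transferrin receptor gene *Tfrc* by -1.23 ± 0.22 and -1.34 ± 0.19, and *Eno3* by -0.97 ± 0.22 and -1.59 ± 0.19. *Bhlhe40*, a transcription factor gene induced by hypoxia, differed by -0.70 ± 0.14 and -0.73 ± 0.12.

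Marker lists of the sorted cells, of other cell types and of cell handling also differed in value between genotypes. None of their genes passed the adjusted test between genotypes in either cell type. Of 14 macrophage markers, 12 lay below 0 and 2 above in Runx3Δ RM (median -0.10), with *Cx3cr1* at -0.59 ± 0.19. In Runx3Δ CD11b+ DC 7 lay on either side, with *Mrc1* at -1.21 ± 0.27. Of 11 CD11b+ DC markers, 4 lay above 0 and 7 below in Runx3Δ CD11b+ DC. *Irf4* differed there by -0.66 ± 0.17 and *Cd24a* by -0.79 ± 0.34. In Runx3Δ RM 6 lay above and 5 below, with *Dpp4* at -0.62 ± 0.18 and *Ccr7* at 0.63 ± 0.28. Of 17 genes that cells are known to induce during tissue dissociation, 15 lay below 0 in Runx3Δ RM (median -0.40) and 16 in Runx3Δ CD11b+ DC (median -0.39). In CD11b+ DC 14 of the 17 were lower on every Runx3Δ array, beside 13.8% of rows. Their summed linear intensity ranged from 33792 to 62976 in WT RM, 33670 to 42469 in Runx3Δ RM, 41564 to 49846 in WT CD11b+ DC and 32348 to 38502 in Runx3Δ CD11b+ DC.

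Of 14 markers of T and NK cells, 12 lay above 0 in Runx3Δ RM (median 0.23) and 11 in Runx3Δ CD11b+ DC (median 0.17). The largest difference in CD11b+ DC went the other way, that of *Cd2* at -1.22 ± 0.33 (unadjusted p = 0.00333, adjusted p = 0.446). *Cd2* was the only marker of this list at the thresholds there. The mean level of the 14 markers on an array ranged from 5.92 to 6.41 in WT RM and from 6.29 to 6.78 in Runx3Δ RM. *Gzma*, a granzyme of cytotoxic cells that is also on the study's list, had the largest difference in RM, from a mean level of 4.08 to 5.38 (1.30 ± 0.35, unadjusted p = 0.00351, adjusted p = 0.344). The T cell receptor subunit genes *Cd3e* (0.66 ± 0.33), *Cd3g* (0.65 ± 0.38) and *Cd3d* (0.32 ± 0.14) and the granzyme gene *Gzmb* (0.52 ± 0.29) were higher in value too, and *Ncr1* and *Klrb1c*, which mark NK cells, had mean levels of 3.46 in WT RM. The summed intensity went the other way, from 4366 to 5286 in WT to 3814 to 4942 in Runx3Δ RM. It includes *Cd4*, which RM held above CD11b+ DC in WT mice by 2.63 and which differed by -0.49 ± 0.22 between genotypes in RM.

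In CD11b+ DC 5 of 7 monocyte markers lay below 0 (median -0.41), and 3 of them were lower at the thresholds, beside 1.19% of rows. These were *F13a1* (-2.38 ± 0.56), *Fn1* (-2.02 ± 0.62) and *Vcan* (-1.33 ± 0.34). *Plac8* (0.66 ± 0.33) and *Chil3* (0.12 ± 0.46) lay above 0 there. In RM 3 of the 7 lay above 0 and 4 below (median -0.21). *Plac8* (0.80 ± 0.27) was the only monocyte marker at the thresholds there, beside 0.523% of rows that were higher. The summed intensity of this list was 7142 to 9242 in WT and 3505 to 4936 in Runx3Δ CD11b+ DC. Of 12 epithelial markers 10 lay above 0 in CD11b+ DC (median 0.28), with *Car1* at 1.69 ± 0.46 and sums of 1001 to 1192 in WT and 1127 to 1653 in Runx3Δ arrays. Of 9 markers of B and plasma cells, 7 lay above 0 and 2 below in Runx3Δ RM (median 0.09). *Sdc1* of this list differed by 1.40 ± 0.22 in RM (unadjusted p = 4.29e-05, adjusted p = 0.0847). It was the only one of the list at an unadjusted p under 0.05 there. Of 10 stromal markers 9 lay below 0 in both cell types. Of 12 neutrophil markers 11 lay above 0 in Runx3Δ RM (median 0.17), and 9 of the 12 had a mean level under 5 there, *S100a8* and *Ly6g* among them. In Runx3Δ CD11b+ DC 9 of these lay above 0 and 3 below (median 0.13). *Cxcr2* (1.27 ± 0.49) and *Csf3r* (0.81 ± 0.23) were higher at the thresholds there, beside 0.569% of rows. Of 8 endothelial markers 6 lay above 0 in RM (median 0.09) and 4 in CD11b+ DC (median -0.01), with 1 higher at the thresholds in each. The part of all these lists in the differences of the glycolysis and HIF-1 genes was not tested.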

How the data were processed

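RNA of 12 sorted cell pools was labelled and hybridized to Affymetrix arrays. The authors summarised the probes with Partek by RMA with GC correction and deposited the result as log2 intensities, and the submitters' processing notes name mm9. The methods name an exon array, whereas rows were named from the annotation of a gene-level array. Array number limits the precision, and arrays give no read depth. The 4 groups were fitted together over all 35556 rows with limma 3.58.1 (lmFit, eBayes) in R 4.3.3 and p-values were adjusted by the Benjamini-Hochberg method. Promoters and figures were handled in Python 3.11.15 (matplotlib 3.10.9). The code was tested on simulated data. Genes named with values in every sample are those called in a comparison, those at the thresholds of the methods between genotypes, and up to 4 of smallest p where none was called. The genes, lists and tests were chosen with earlier results of these data known. Alternatives were a litter block, other row choices, filters, normalizations, priors and the ordinary one-way model of the methods, and leaving out arrays.

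Litter numbers in the labels pair the samples. Deviations from group means correlated across rows with 1 symbol with a median of 0.132 in 13 pairs of arrays of the same litter (-0.0026 to 0.507) and of -0.033 in 40 pairs of different litters, and of 0.087 in the 4 pairs of WT and Runx3Δ arrays of 1 cell type and litter. These pairs are not independent, because taking off the group mean ties the arrays of a group together. With 2 WT CD11b+ DC arrays, their correlations with any other array are equal and opposite. Genes are not independent replicates, and p-values measure the spread between pools.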

Additional observations from a re-analysis of the deposited data

Results flagged for a closer look

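Within the 4 Runx3Δ RM arrays, 33 genes were examined for an array that stands apart by Dixon's ratio, the gap to the nearest array over the whole range, and 2 exceeded the critical value, where chance gives about 5% of groups. *Pfkm* was high in replicate 4, at a level of 6.20 (ratio 0.843). *Eno2* was high in replicate 1, at a level of 6.16 (ratio 0.907), and the highest level of *Eno2* in Runx3Δ CD11b+ DC, 6.31, was also on the array of litter 1.

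The difference between genotypes in *Pfkp* had opposite signs in the cell types. Every Runx3Δ array lay above every WT array in RM and below in CD11b+ DC, and the interaction of 0.80 had an adjusted p of 1.00 in the limma fit. With litter as a block it was 0.65, and over 24 other settings it ranged from 0.65 to 0.95, with an adjusted p of at least 0.669.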

How the results depend on the processing

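Over 25 other settings, 323 of 346 counts and medians over the genes stayed within 1.5 times of their first value (counts) or moved by less than the spread between replicates (medians). Counts of 0 that stayed at 0 are in this tally. So is the CD11b+ DC median, which went from 0.19 to 0.07 with litter as a block. None of the named genes changed direction, while 30 of 657 single-gene values lost and 16 gained an adjusted p under 0.05. With litter as a replicate block, the genes at the thresholds of the methods were 3 in RM, 0 in CD11b+ DC and 1 for the interaction, instead of 7, 1 and 2, and the medians were 0.24, 0.07 and 0.09; the block changed no other count by over 1.5 times. With 1 row per gene or the mean of the rows of a gene, 1 gene, *Hif1a*, passed the adjusted test in RM. Without litter 4, a setting chosen after seeing the data, 4 genes met the thresholds in RM and 0 in CD11b+ DC. With each array left out in turn, the genes called were 0 to 0 in RM, CD11b+ DC and the interaction, 1 to 5 between WT cell types and 4 to 7 between Runx3Δ cell types. The medians were 0.18 to 0.42 in RM, 0.11 to 0.23 in CD11b+ DC, 0.01 to 0.23 for the interaction, -0.13 to 0.01 between WT and -0.03 to 0.14 between Runx3Δ cell types. Those at the thresholds were 3 to 12 in RM, 0 to 2 in CD11b+ DC, 1 to 3 for the interaction, 5 to 7 between WT and 5 to 10 between Runx3Δ cell types. Of the WT cell types, 1 gene was called without WT CD11b+ DC replicate 1 and 2 without WT CD11b+ DC replicate 2 or WT RM replicate 2 or 3. A filter on dim rows left out *Car12*.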
